A study of Mus musculus with 2 samples.

Results

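The data of 40 cell cycle genes, of the 28692 genes listed in the count matrices, were followed in GR-1+ cells of mouse mammary tumors. They were taken by symbol from a list with 20 genes of the G2 phase and mitosis (G2/M), 13 genes of DNA synthesis (S), and 7 genes that are linked to division but also serve resting cells. The cells came from tumors of 4T1, a triple-negative breast carcinoma line, grown in the mammary fat pad of female BALB/c mice aged 8 to 10 weeks. 4T1p is the parental line, whose tumors resist anti-PD1. 4T1m is a polyclonal derivative made with the mutagen MNNG, whose tumors respond. Both groups received anti-PD1 for 2 weeks, and no group without the antibody is compared here. GR-1+ cells were taken from the dissociated tumors by positive selection on magnetic beads and sequenced with 10x 3′ v3 chemistry as 1 library per line.

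A dividing cell switches on its genes in order. Helicase, clamp and nucleotide genes rise before and during S phase, mostly under E2F factors. Cyclins, kinases, kinesins and kinetochore genes follow in G2 and mitosis, and the DREAM and MuvB complexes act on them through CHR elements. Neutrophils stop dividing at the myelocyte stage, well before they reach a tumor, whereas some tissue and tumor macrophages can renew by division. A single UMI of a cycle gene, a single counted RNA molecule, does not tell a dividing cell from a resting one, so the number of different genes found in the same cell was counted. A cell with a UMI of 3 or more of the 20 G2/M genes is called co-detecting here, which is a count and not a verdict on division.

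There were 1641 barcodes with 9021132 UMIs in the library labelled 4T1p and 2749 barcodes with 14840190 UMIs in that labelled 4T1m, and 0 barcodes were shared. Filters on genes, UMIs and mitochondrial share kept 1128 and 2092 cells with median depths of 2015 and 2739 UMIs. The depths in the files are exchanged relative to those in the study's text, so each library is called by its label, and all 4T1m-over-4T1p directions hold only if the labels do. There is 1 library per line, so no difference between lines was tested, and the 95% intervals (exact Poisson for levels, exact binomial for shares and ratios) cover counting error only. Clustering without the cycle genes gave 1885 monocytic-like, 1272 granulocytic-like, 36 B cell-like and 27 T cell-like cells, although GR-1 selection is best known for granulocytic cells. Of the 10 monocytic markers 7 or more were detected in every monocytic-like cluster. Those clusters fall into a shallow set (clusters 3, 4, 6 and 7, 1200 cells, median 1134 UMIs) and a deep set (clusters 1, 8 and 10, 685 cells, median 12142 UMIs).

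The G2/M and S genes carry different letters around their starts. RefSeq promoters of GRCm38.p6, 300 bases from 250 before to 50 after each start, were matched for 35 of the 40 genes and gave 37 entries. Searched on both strands were the CHR element TTTGAA, the CCAAT box CCAAT and the E2F letters TTTGGCGC, TTTCCCGC, TTTGCCGC or TTTCGCGC. CHR was found in 14 of 19 G2/M entries (73.7%), in 1 of 12 S entries (8.33%), and in 17.9% of all 32851 promoters. E2F letters were found in 1 of 19 G2/M entries (5.26%), in 5 of 12 S entries (41.7%), and in 2.26% of all promoters. CCAAT was as common in G2/M entries (84.2%) as in S entries (83.3%), against 37.4% of all promoters. All 14 G2/M entries with CHR also held CCAAT, a combination present in 6.95% of all promoters. In Cdca8, Cenpa, Cenpf, Aurka and Plk1 CHR lay only after the start, as did the E2F letters of Mcm3. A match is a description of letters only.

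The 120 bases before the RefSeq start (GRCm38.p6, 5′ to 3′ on the gene's strand) are shown for genes on which the results below turn, with CHR, CCAAT and E2F letters on either strand in capitals: 3 G2/M genes with CHR and CCAAT, then Hmgb2, which holds both, and Cks2, which holds CCAAT alone, both high in granulocytic-like cells, then Mcm6 with E2F letters, and Birc5, which holds none of the letters searched. They lie at chr10:69352913-69353032, minus strand (Cdk1), chr4:118437344-118437463, minus strand (Cdc20), chr2:164769809-164769928, plus strand (Ube2c), chr8:57511723-57511842, plus strand (Hmgb2), chr13:51645112-51645231, plus strand (Cks2), chr1:128359706-128359825, minus strand (Mcm6) and chr11:117849117-117849236, plus strand (Birc5).
Cdk1: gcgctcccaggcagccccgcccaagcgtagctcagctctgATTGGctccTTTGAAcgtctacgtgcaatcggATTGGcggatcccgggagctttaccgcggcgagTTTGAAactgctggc
Cdc20: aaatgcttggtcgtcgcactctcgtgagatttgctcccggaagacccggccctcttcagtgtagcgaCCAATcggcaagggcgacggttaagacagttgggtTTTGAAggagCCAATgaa
Ube2c: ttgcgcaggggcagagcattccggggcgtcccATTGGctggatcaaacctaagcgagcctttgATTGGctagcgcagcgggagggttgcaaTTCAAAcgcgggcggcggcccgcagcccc
Hmgb2: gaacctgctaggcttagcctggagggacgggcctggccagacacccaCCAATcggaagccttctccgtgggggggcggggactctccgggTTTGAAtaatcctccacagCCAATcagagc
Cks2: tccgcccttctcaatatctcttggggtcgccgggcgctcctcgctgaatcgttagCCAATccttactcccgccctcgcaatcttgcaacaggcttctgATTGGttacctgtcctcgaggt
Mcm6: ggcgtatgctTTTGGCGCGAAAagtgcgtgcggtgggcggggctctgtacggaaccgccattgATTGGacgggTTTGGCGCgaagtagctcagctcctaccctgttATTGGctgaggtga
Birc5: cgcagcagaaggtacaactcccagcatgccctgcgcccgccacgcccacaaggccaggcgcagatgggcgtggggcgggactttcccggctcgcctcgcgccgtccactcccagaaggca

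Co-detection was found mainly in monocytic-like cells. In the library labelled 4T1p, 86 of 869 monocytic-like cells carried 3 or more G2/M genes (9.90%, interval 7.99 to 12.1), and in that labelled 4T1m 114 of 1016 (11.2%, interval 9.35 to 13.3). Granulocytic-like cells gave 2 of 251 and 8 of 1021, together 0.786% (interval 0.378 to 1.44). The monocytic-like share was far above the granulocytic-like share in both libraries, and the intervals of the lineages did not overlap. Of 216 co-detecting cells in all, 92.6% were monocytic-like and 10 granulocytic-like, and the rest were 4 of the 36 B cell-like and 2 of the 27 T cell-like cells.

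Single genes made a poorer distinction. A UMI of any G2/M gene was present in 796 monocytic-like and 152 granulocytic-like cells. Of these, 50.1% of the monocytic-like but 85.5% of the granulocytic-like cells had exactly 1 G2/M gene, and 25.1% against 6.58% had 3 or more. The granulocytic-like clusters 0, 2 and 5 serve as the background share; cluster 2 was led by genes such as Hdc, Il1f9 and G0s2, cluster 5 by genes that include Cxcr2, and cluster 0, with 6 of 8 granulocytic markers detected, by Ccdc126, Ciart and Dedd2. Their median depths were 2021, 2894 and 1591 UMIs, each deeper than at least 3 of the 4 shallow monocytic-like clusters, and they held 1 of 419, 1 of 387 and 2 of 289 co-detecting cells. The 2 cells of cluster 5 were marked as doublets, and that of cluster 0 held 21 UMIs of monocytic and 29 of granulocytic markers. Cluster 9, the granulocytic-like cluster left out of this background, was deeper (median 5499 UMIs) and had 3.39% co-detecting cells among 177.

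**Figure D1:**
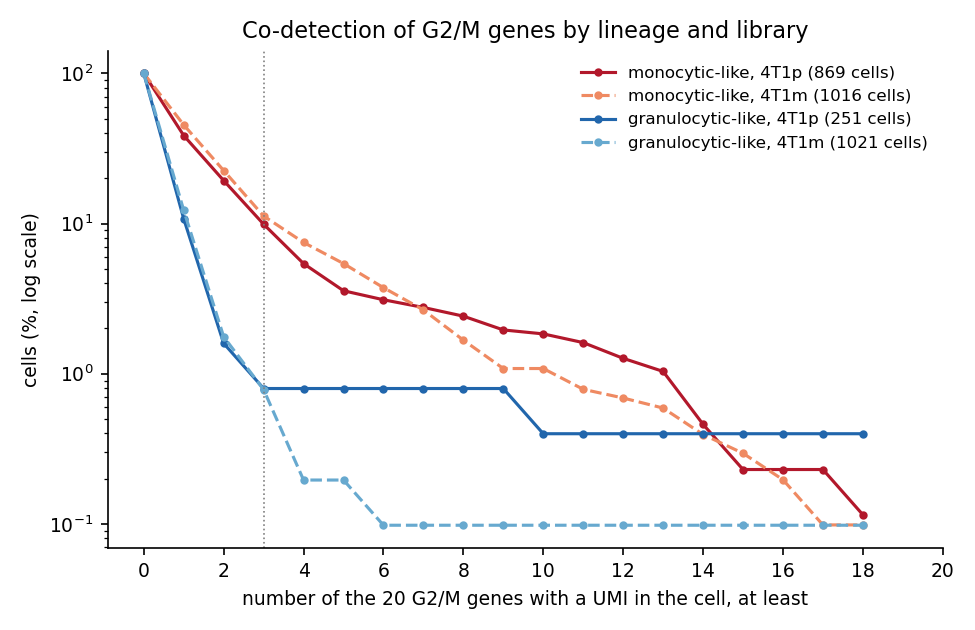
Percent of cells (log axis) with at least the number of different G2/M genes on the x axis, of 20, for each lineage and library. At 3 genes the monocytic-like curves stand at 9.90% and 11.2%, the granulocytic-like ones at 0.797% and 0.784%; past 10 genes each granulocytic-like curve is 1 cell, and all end at 18 genes.

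At the far end stood a small number of cells with most of the list. Of the kept cells 29 had 10 or more G2/M genes, 27 of them monocytic-like (16 in the library labelled 4T1p, 11 in that labelled 4T1m) and 2 granulocytic-like. These 27 cells are 1.43% of monocytic-like cells but held 31.0% of their G2/M UMIs, and the 200 co-detecting cells held 63.0%. Cells with a single G2/M gene held 18.6%. A summed G2/M level is therefore in large part the content of few cells.

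S genes too were co-detected more in monocytic-like than in granulocytic-like cells. At least 3 of the 13 S genes were found in 269 monocytic-like cells (14.3%), 103 in the library labelled 4T1p (11.9%) and 166 in that labelled 4T1m (16.3%). Among granulocytic-like cells 5 (0.393%) had 3 or more. The lymphoid clusters were not as low, with 4 of 36 B cell-like (11.1%) and 5 of 27 T cell-like cells (18.5%) as counted. Both classes met in 84 monocytic-like cells. An S class was present in 42.0% of cells with the G2/M class and in 185 of the 1685 cells without it.

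Depth had to be set equal before clusters could be compared. As counted, 149 of 1200 cells of the shallow clusters (12.4%, interval 10.6 to 14.4) and 51 of 685 of the deep clusters (7.45%, interval 5.59 to 9.67) were co-detecting. With each cell thinned to 1000 UMIs, as the mean of 20 draws, the shallow clusters kept 9.59% (8.71 to 10.7 over the draws, 534 shallower cells left out) and the deep ones 0.275% (0 to 0.595, 13 left out). The same cells before thinning had shares of 17.6% and 7.59%. Co-detection in the deep clusters thus nearly vanished at equal depth, and that in the shallow ones did not. Over whole lineages the thinned shares were 4.91% (4.48 to 5.46, 547 left out) for monocytic-like and 0.185% (0.0858 to 0.258, 107 left out) for granulocytic-like cells. As counted, the S class had the opposite order, with 11.5% of cells in the shallow and 19.1% in the deep clusters. After thinning it stood at 5.82% and 0.298%, against 18.5% and 19.5% of the same cells before, so it too nearly vanished in the deep clusters.

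Cluster 3 had the highest share. Its leading genes were Stmn1, Ranbp1 and Tubb5. Stmn1 and Tubb5 are cycle genes that had been kept out of the clustering. Division genes in none of the lists left out, such as Pttg1, could still enter the clustering. In cluster 3, 7 of 10 monocytic markers were detected. Of its 370 cells 67 were co-detecting (18.1%, interval 14.3 to 22.4), and 198 cells of 1000 UMIs or more had 23.7% before and 17.3% after thinning (15.2 to 19.7 over draws). Clusters 4, 6 and 7, led by Fabp5 and Mmp12, by Gatm and Cx3cr1 and by Cxcl9 and Mgl2, lay close together at 9.86%, 9.86% and 9.92%, and at 6.20%, 5.16% and 7.44% after thinning. In the deep clusters 1, 8 and 10 the shares of 7.30%, 9.19% and 4.85% became 0.194%, 0.0270% and 1.05%. In the granulocytic-like cluster 9 the 3.39% became 0.847% (0 to 1.13 over draws). That is not below the 0.275% of the deep monocytic-like clusters together. Cluster 8 had the most S co-detection of any cluster as counted (29.7%), of which 0.784% was left after thinning. In the shallow clusters only cells of at least 1000 UMIs enter the thinned shares.

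**Figure D2:**
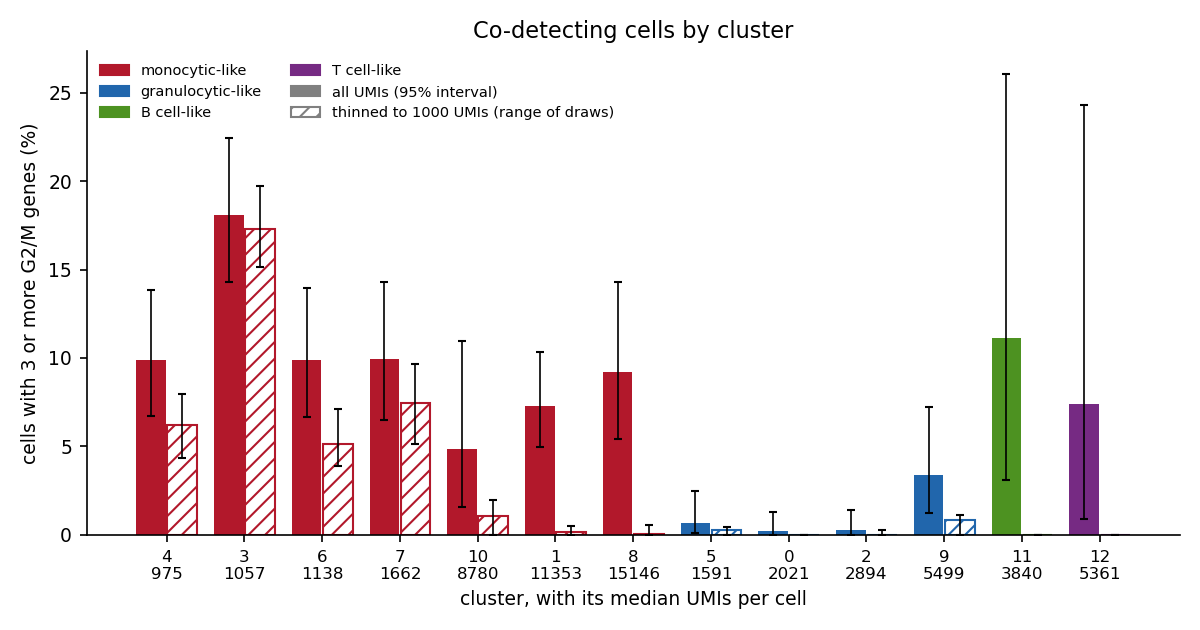
Percent of cells of each cluster with 3 or more G2/M genes, as counted (bars with exact binomial 95% interval) and after thinning to 1000 UMIs (hatched bars, mean of 20 draws with their range), with the cluster's median UMIs below its number. Cells under 1000 UMIs enter the plain bars only. Cluster 3 stands at 17.3% after thinning, against 0.194% and 0.0270% in clusters 1 and 8.

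Most co-detecting monocytic-like cells carried markers of their lineage. At least 3 of the 10 monocytic markers were present in 189 of the 200 (94.5%), against 92.1% of the other monocytic-like cells, and none lacked all 10. In cluster 3 it was 58 of 67 (86.6%), against 77.2% of its other 303 cells, of which 20 lacked all 10. The count is not strict, since 5 of the 10 co-detecting granulocytic-like cells reached it too. The median depth of the 200 monocytic-like cells was 3951 UMIs against 2099. Ptprc, the leukocyte marker CD45, had a UMI in 97 of them (48.5%), close to the 50.3% of the others. The sets of clusters differed in this. Ptprc had a UMI in 32.2% of co-detecting cells of the shallow clusters (24.7% of the others) and in 96.1% of those of the deep ones (92.6%). In cluster 3 it was 14.9% of the co-detecting cells. The study kept only cells with a Ptprc UMI, a filter used here only as an alternative. Fibroblast markers gave 2 UMIs in all, with Col1a1, Dcn and Pdgfra at 0, and mast cell or basophil and NK markers gave 0. Keratin and other carcinoma markers gave 87 UMIs, 60 of them in 2 cells of cluster 3 of the library labelled 4T1p that had 2 monocytic markers each. Haemoglobin genes gave 11098 UMIs, 11073 of them in 2 cells of the library labelled 4T1m. Granulocytic markers summed to 2717 CPM in the co-detecting and 696 CPM in the other monocytic-like cells of the library labelled 4T1p, and to 853 and 1540 CPM in that labelled 4T1m. In 4T1p 1358 of the 1747 UMIs in co-detecting cells lay in 2 of the 86 cells, and the median cell had 0. At least 3 granulocytic markers were present in 52.9% of co-detecting and 36.1% of other cells of the deep clusters, and in 10.7% and 5.80% of those of the shallow ones. The part of these granulocytic UMIs in co-detection was not tested. Without the 4 cells with keratin or haemoglobin UMIs 84 of 867 and 112 of 1014 monocytic-like cells were co-detecting.

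Levels of the members were then compared between lineages. Summed over both libraries, 32 of 39 members with 50 or more UMIs had a higher level in monocytic-like cells with an interval above 0, but so did 65.2% of all genes. An interval below 0 was seen for 2 members, and for 19.5% of all genes. The median log2 ratio was 1.27 over the 20 G2/M genes, 1.98 over the 13 S genes and 1.25 over all genes. The G2/M median turned on few cells, since 235 of the 480 G2/M UMIs of granulocytic-like cells lay in 2 cells with 18 of the 20 genes. Without these 2 cells it was 2.42 (1.27 over all genes), and 35 of 37 members lay above 0 (65.1% of all genes). Without all cells of 10 or more G2/M genes in either lineage it was 1.70 (1.25 over all genes), and 29 of 33 members lay above 0 (65.0%). These settings were chosen after seeing the data.

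The libraries differed in this comparison. In that labelled 4T1p 16 of 29 members lay above 0 (51.0% of all genes), of the G2/M genes only Mki67 and Cenpa among 10 with 50 or more UMIs. In that labelled 4T1m 28 of 30 members did (65.4%), all 10 G2/M genes measured included. The G2/M medians were 0.42 and 1.42, against 1.01 and 1.23 over all genes. Without cells of 10 or more G2/M genes they were 0.78 and 1.92, against 1.00 and 1.22. In 4T1p the G2/M median thus lay below that of all genes in both settings. The G2/M medians also take in genes under 50 UMIs. All levels below are sums over both libraries unless a library is named. Their lineage ratios are read against 0, whereas the median log2 ratio over all genes was 1.25 in both libraries together. A higher level alone therefore does not set a member apart from other genes.

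Among the mitotic regulators, Cdk1, the kinase that starts mitosis, stood at 9.53 CPM (UMIs of the gene per 1000000 UMIs of the group) in monocytic-like and 4.55 CPM in granulocytic-like cells. Its partners Ccnb1 and Ccnb2, the B cyclins, stood at 4.47 and 9.95 CPM against 1.01 and 4.29 CPM. With all cells counted, Ccna2, the cyclin of S phase and G2, differed least among the cyclins. It stood at 5.82 against 4.04 CPM with an interval holding 0 (log2 0.53, -0.27 to 1.41). Of its 16 granulocytic-like UMIs, only 1 in 4T1p and 1 in 4T1m lay outside the 2 cells with 18 G2/M genes. The mitotic kinases were all sparse: Aurka at 3.62 against 2.78 CPM, Aurkb at 6.24 against 1.77 CPM, Plk1 at 2.61 against 1.26 CPM and the checkpoint kinase Bub1 at 5.39 against 1.01 CPM. Aurka and Plk1 had intervals that held 0. Of the 11 granulocytic-like UMIs of Aurka, 2 in 4T1p and 4 in 4T1m lay outside the 2 cells with 18 G2/M genes. For Plk1, 1 and 2 of the 5 did. Cdc20, which activates the ligase that ends metaphase, and Ube2c, the conjugating enzyme of that ligase, stood at 5.82 against 2.02 CPM and 25.5 against 14.7 CPM.

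Chromosome and spindle genes spanned a wider range. Mki67, which coats mitotic chromosomes, was the most abundant G2/M gene at 78.9 against 25.8 CPM (log2 1.61, 1.32 to 1.92). Top2a, which untangles DNA, stood at 28.3 against 14.4 CPM, and Birc5 and Cdca8, both of the chromosomal passenger complex, at 22.2 against 9.09 CPM and 13.7 against 4.29 CPM. In 4T1p alone the intervals of these 3 genes held 0 (Top2a 0.40, Birc5 0.28, Cdca8 0.38). Of the granulocytic-like UMIs, 36 of 57 of Top2a and 20 of 36 of Birc5 lay in the 2 cells with 18 genes. Cenpa, the histone variant of centromeres, stood at 40.1 against 16.9 CPM, and the kinetochore gene Cenpf at 8.18 against 3.03 CPM. The spindle genes Nusap1 (7.16 against 2.78 CPM) and Tacc3 (8.09 against 1.26 CPM) were higher in monocytic-like cells. Prc1 (5.39 against 3.54 CPM) and the motor Kif11 (3.71 against 2.78 CPM) had intervals that held 0. Of the 11 granulocytic-like UMIs of Kif11, 0 in 4T1p and 2 in 4T1m lay outside the 2 cells with 18 genes. For Prc1, 1 and 8 of the 14 did.

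With all cells counted, the replication (S) genes had a larger median lineage ratio (log2 1.98) than the G2/M genes (1.27). Without the 2 granulocytic-like cells with 18 G2/M genes the G2/M median was 2.42. The S median without them is not given here, so the order is read for all cells only. The helicase subunits Mcm2, Mcm3, Mcm4, Mcm5, Mcm6 and Mcm7 stood between 10.96 and 29.8 CPM in monocytic-like and between 2.27 and 8.59 CPM in granulocytic-like cells, with the highest ratio for Mcm3 (log2 3.71, 2.77 to 4.85). Pcna, the sliding clamp, stood at 50.7 against 20.7 CPM, and 2810417H13Rik, the PCNA-binding factor Pclaf, at 34.2 against 11.1 CPM. Of the nucleotide genes, Tyms (17.2 against 2.78 CPM), Tk1 (8.09 against 1.26 CPM) and Rrm1 (log2 1.98, 1.36 to 2.68) were higher in monocytic-like cells. Rrm2, the reductase subunit made for S phase, was not separated with all cells counted (8.35 against 6.32 CPM, log2 0.40, -0.24 to 1.10). Of its 25 granulocytic-like UMIs, only 0 in 4T1p and 5 in 4T1m lay outside the 2 cells with 18 G2/M genes. Gmnn, the inhibitor of relicensing, stood at 19.6 against 7.33 CPM.

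Hmgb2 and Cks2 went the other way. Hmgb2, a chromatin protein that also marks young neutrophils, stood at 309 CPM in monocytic-like and 989 CPM in granulocytic-like cells (log2 -1.68, -1.75 to -1.61). Cks2, a small subunit that docks to CDKs, stood at 49.8 and 195 CPM (log2 -1.97, -2.13 to -1.81). In granulocytic-like cells Hmgb2 was found in 73.7% of cells, or 51.2% after thinning to 1000 UMIs, and Cks2 in 27.9%, whereas Top2a was found in 19 of 1272. Of the 938 granulocytic-like cells with Hmgb2, 3.41% had Mki67 and 1.39% Birc5. The close relative Cks1b lay on the monocytic side, at 22.5 against 3.79 CPM. The remaining members did too: Stmn1, which destabilizes microtubules, at 52.4 against 10.4 CPM, the tubulins Tuba1b and Tubb5 at 262 and 368 against 38.4 and 39.9 CPM, and the condensin gene Smc2 at 19.6 against 7.33 CPM.

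In the library labelled 4T1p the lineage order of Ube2c was reversed, at 32.2 CPM in monocytic-like and 57.0 CPM in granulocytic-like cells (log2 -0.83, -1.31 to -0.32), with 38 of the 47 granulocytic-like UMIs in 1 cell of cluster 9. Without cells of 10 or more G2/M genes it was 0.72 there (-0.27 to 1.90). In that labelled 4T1m it stood at 21.2 and 3.51 CPM (log2 2.59, 1.71 to 3.62). The levels of Hmgb2 and Cks2 kept their order in both libraries.

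Across clusters the members fell into different patterns. Top2a stood between 44.8 and 118 CPM in the 4 shallow monocytic-like clusters, between 6.84 and 11.7 CPM in the 3 deep ones and between 2.98 and 12.9 CPM in granulocytic-like clusters 0, 2 and 5. Ube2c (42.3 to 134 against 2.77 to 16.5 CPM) and 2810417H13Rik (49.7 to 205 against 4.32 to 7.78 CPM) separated the shallow from the deep clusters too. Mki67 did not: it was highest in the shallow cluster 6 (109 CPM) and the deep cluster 8 (109 CPM), where 50.3% of cells had a UMI of it, and lowest in the deep cluster 10 (42.8 CPM). Pcna varied least, from 37.5 CPM in cluster 6 to 66.6 CPM in cluster 8. Tubb5 was highest in cluster 3 (924 CPM). Hmgb2 ran from 165 CPM in cluster 10 to 606 CPM in cluster 3 among monocytic-like clusters, and from 688 CPM in cluster 2 to 1315 CPM in cluster 9 among granulocytic-like ones.

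**Figure D3:**
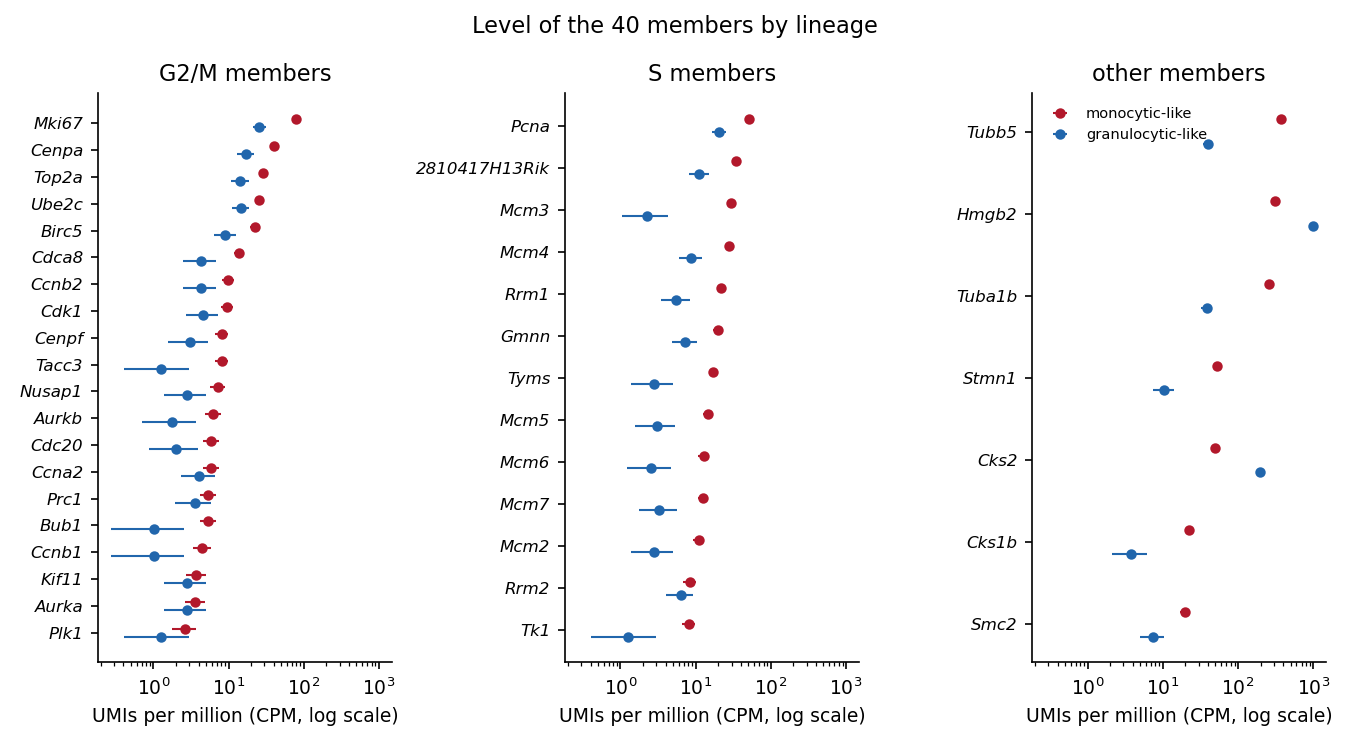
Level of each of the 40 genes in CPM (log axis, exact Poisson 95% interval) in monocytic-like and granulocytic-like cells of both libraries together. Most of the 40 genes lie higher in monocytic-like cells, as do most genes in general (65.2% with an interval above 0). Hmgb2 (309 against 989 CPM) and Cks2 (49.8 against 195 CPM) lie higher in granulocytic-like cells.

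Members differed in how far their UMIs kept to co-detecting cells. For each G2/M gene the class was set again from the other 19, so that its own UMI did not count. In all monocytic-like cells, the co-detecting cells held at most 14.0% of all UMIs but 84.1% of those of Ccna2, 80.6% of Plk1, 79.5% of Kif11, 76.8% of Cdc20, 76.4% of Birc5, 73.5% of Ube2c and 70.8% of Top2a. The same share was 29.8% for Mki67 and 32.4% for Cenpa, which left most of their UMIs in cells without the rest of the programme. Of the genes that set no class, 2810417H13Rik was the most confined (73.9%). Tk1 (60.4%), Cks1b (59.2%), Rrm2 (58.6%), Stmn1 (57.9%) and Smc2 (53.4%) followed. Pcna (17.6%) and Cks2 (19.0%) were spread almost as widely as UMIs in general.

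The spread of Mki67 and Cenpa belonged to the deep clusters. In the shallow clusters, where co-detecting cells held at most 22.2% of UMIs, 73.2% of Mki67 UMIs and 61.4% of Cenpa UMIs lay in them. In the deep clusters, where they held at most 10.8%, Mki67 had 74 UMIs inside and 582 outside (11.3% inside), and 34.0% of the cells outside the class had a UMI of it. Its level there was 140 CPM inside and 73.0 CPM outside (log2 0.94, 0.57 to 1.29), against 309 and 27.8 CPM in the shallow clusters (log2 3.47, 3.08 to 3.87). Cenpa in the deep clusters was as high outside as inside, at 30.5 and 33.0 CPM (log2 0.12, -0.59 to 0.75). Hmgb2 (9.99% inside), Cks2 (7.93%) and Tuba1b (11.4%) were likewise no higher inside the class there. Ube2c (71.8%), Ccnb2 (76.0%) and Birc5 (60.0%) kept to it, on 28 of 39, 19 of 25 and 18 of 30 UMIs. Among S genes, 2810417H13Rik (52.0%) and Mcm6 (45.6%) kept to the class in the deep clusters, whereas Pcna (58 UMIs inside and 389 outside) and Gmnn (19 and 103) did not, their intervals holding 0.

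**Figure D4:**
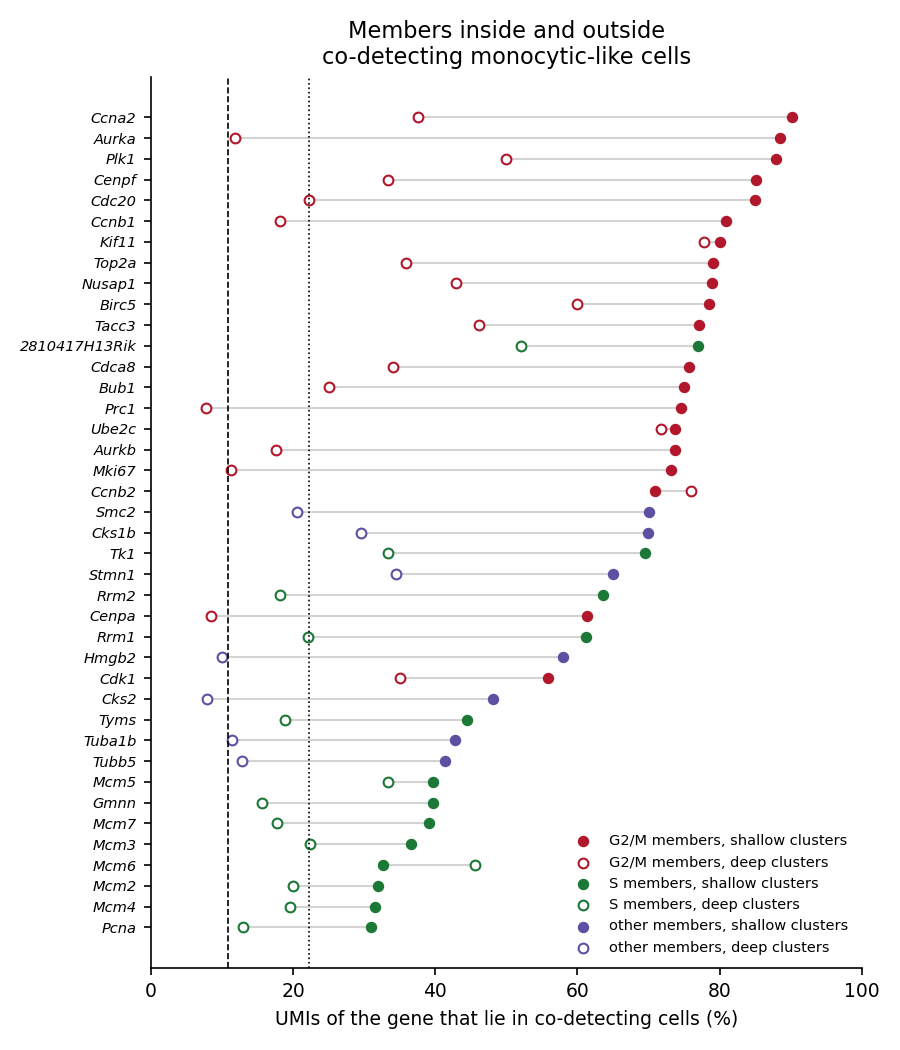
Percent of each gene's UMIs (x axis) that lie in co-detecting cells, for shallow (filled) and deep (open) monocytic-like clusters, with the class of a G2/M gene set from the other 19. The vertical lines mark the highest share of all UMIs held by those cells, 22.2% and 10.8%. The class of a single G2/M gene can hold less. A point near its line can therefore still mean a higher level inside, as for Mki67 in the deep clusters. Mki67 moves from 73.2% to 11.3% and Cenpa from 61.4% to 8.43%.

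Single gene pairs were also read without any class. Of 152 monocytic-like cells with Top2a, 52.0% had Stmn1, 44.7% 2810417H13Rik, 44.1% Mki67, 31.6% Birc5 and 29.6% Ube2c, against 13.5%, 6.58%, 15.9%, 4.39% and 5.48% of cells without Top2a. Of 117 cells with the helicase gene Mcm5, 44.4% had Mcm3, 34.2% Mcm6 and 27.4% Mcm2, against 10.3%, 3.05% and 4.19% of those without. Depth was not set equal between cells with and without a gene, and its part in these shares was not tested. In granulocytic-like cells 3 of 19 cells with Top2a had Mki67.

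Both granulocytic-like cells with 10 or more G2/M genes lay in cluster 9, which is led by the late granule genes Camp, Ngp and Ltf of young neutrophils. Each library gave 1 of them. Each had 18 of the 20 genes, with 26010 and 24299 UMIs, 7 and 8 S genes, and Top2a at 16 and 20 UMIs. They held 948 and 931 UMIs of Camp, 1462 and 965 of Ngp and 316 and 286 of Ltf, and 1 and 2 UMIs of monocytic markers. Of the 4 early granule genes Elane, Mpo, Prtn3 and Ctsg, the cell of 4T1p had 0 UMIs and that of 4T1m 3, all of Prtn3. Neither was marked as a doublet. Of the G2/M UMIs in granulocytic-like cells, 133 of 181 in the library labelled 4T1p and 102 of 299 in that labelled 4T1m were in these 2 cells.

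Other genes of the cycle were compared between the 200 co-detecting and the 1685 other monocytic-like cells. Of 7589 genes with 100 or more UMIs, 1.63% were at least 2-fold higher in co-detecting cells and 1.90% at least 2-fold lower, and the median log2 ratio was 0.06. Of 12 measured genes of a wider G2/M list 8 were 2-fold higher and 0 were lower (median 1.08). The kinetochore motor Cenpe led with 60.2 against 2.94 CPM (log2 4.36), followed by Cbx5, Tmpo, Rangap1 and Anp32e between 1.64 and 1.13. Lowest were Gas2l3 (0.08), Hjurp (0.39), Ckap5 (0.47), Hn1 (0.49) and Lbr (1.06). Of a wider S list 5 of 14 were 2-fold higher and 0 lower (median 0.76): the replication genes Gins2 (27.7 against 8.23 CPM, log2 1.75), Atad2 (1.48), Tipin (1.33), Fen1 (1.25) and Lig1 (1.01). Its lowest were Rfc2 (0.59), Usp1 (0.55), Pold3 (0.52), Slbp (0.49) and Ubr7 (0.16).

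Regulators of the cycle, a list of 32 genes that holds both drivers and inhibitors, showed few 2-fold differences among those measured. Of 18 measured, 1 was 2-fold higher, E2f1, the factor that drives S genes, at 29.5 against 14.7 CPM (log2 1.00, 0.51 to 1.48), and the median was -0.05. E2f1 stood at 28.4 against 14.1 CPM in the deep clusters and had an interval holding 0 in 4T1p (log2 0.72, -0.03 to 1.41). It had under 100 UMIs in the shallow clusters and in 4T1m, where 0 of 13 and 0 of 16 regulators were 2-fold higher; in 4T1p 2 of 16 were. Cdkn2d (0.73), Cdk4 (0.42), Trp53 (0.35) and Ccnd2 (0.34) came next. Lowest was Cdk6 (-0.85), followed by the antiproliferative genes Btg1 (-0.58) and Btg2 (-0.45), then Myc (-0.39, interval holding 0) and Ccng2 (-0.38). Of 16 measured genes of a chromatin and growth list 7 were 2-fold higher (median 0.92), led by the histone variant H2afx (63.8 against 17.6 CPM, log2 1.85), the Polycomb methyltransferase Ezh2 (1.53), Dut, a nucleotide enzyme (1.48), Hmgn2 (1.26) and H2afv (1.20). Dek (0.65), Ptma (0.65), Nap1l1 (0.56), Suz12 (0.49) and Lmnb1 (0.47) were the lowest of them.

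This pattern was that of the shallow clusters. There 2.85% of 4030 genes were 2-fold higher and 1.54% lower, and 6 of 8 wider G2/M, 3 of 6 wider S and 10 of 15 chromatin and growth genes were higher. In the deep clusters 0.541% of 6659 genes were 2-fold higher and 1.77% lower, and the counts were 0 of 10, 1 of 12 and 0 of 16. The deep comparison rests on 51 co-detecting cells.

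Of 10 monocytic markers 0 were 2-fold higher or lower in all monocytic-like cells and 0 in the deep clusters. In the shallow clusters 1 was lower, the macrophage gene Ms4a7 at 68.4 against 259 CPM (log2 -1.92), and the list's median was -0.32. Ms4a7 was also 2-fold lower in 4T1p (-1.22). Over all monocytic-like cells the 10 markers ran from log2 -0.98 to 0.34, with a median of -0.10. Csf1r, the receptor that macrophages need, stood at 513 against 502 CPM and C1qa at 3731 against 3311 CPM. In the shallow clusters the highest ratio of the 10 was 0.05. Of 5 genes of inflammatory monocytes 2 were 2-fold lower, Plac8 at 96.9 against 294 CPM (log2 -1.60) and F13a1 at 176 against 358 CPM (log2 -1.03). Ly6c2 stood at 18.1 against 31.6 CPM (log2 -0.81) and Ccr2 at 350.3 against 386 CPM. Plac8 was lower in both libraries, at 137 against 276 CPM in that labelled 4T1p and 71.7 against 305 CPM in that labelled 4T1m. The list differed between sets of clusters, with 3 of 4 measured genes 2-fold lower in the deep clusters (median -1.16) and 0 of 3 in the shallow ones (median -0.50). In cluster 3 the median was 0.38, and 1 of 3 was 2-fold lower, Plac8 (-1.24).

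Between the libraries, the share of co-detecting monocytic-like cells overlapped within counting error (9.90% and 11.2%), and after thinning the draws overlapped too (5.24%, 4.60 to 6.19, and 4.67%, 3.88 to 5.43). The summed G2/M level was 323 CPM in the library labelled 4T1p and 277 CPM in that labelled 4T1m (log2 4T1m over 4T1p -0.22, -0.32 to -0.13), and the summed S level 286 and 258 CPM (-0.15, -0.25 to -0.05). Both depend on which cells are counted. Without the 27 cells of 10 or more G2/M genes, the G2/M ratio was 0.11 (-0.01 to 0.23), and with only cells that had a Ptprc UMI it was 0.02 (-0.10 to 0.14). The libraries also differ in their mix, with 25.2% of monocytic-like cells of 4T1p and 45.9% of 4T1m in the deep clusters. Within the shallow clusters the ratio was 0.01 (-0.12 to 0.13) and within the deep ones 0.30 (0.13 to 0.47).

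The libraries' counts of members are read against those of all genes. Of 37 members with 50 or more UMIs in monocytic-like cells, 0 were 2-fold higher in the library labelled 4T1m (7.56% of all genes were) and 1 was 2-fold higher in that labelled 4T1p (1.89%), Cdc20 at 9.93 CPM in 4T1p and 3.18 CPM in 4T1m (log2 -1.64, -2.43 to -0.89). Intervals lay above 0 for 3 members (34.0% of all genes) and below 0 for 16 (18.7%). The median over members was -0.35, and over all genes 0.12. The 3 above were Mki67 (67.1 and 86.4 CPM in 4T1p and 4T1m, log2 0.36), Mcm4 (23.5 and 30.7 CPM, 0.38) and Rrm1 (18.3 and 24.3 CPM, 0.41).

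The 16 below included Cdk1 (12.7 and 7.47 CPM in 4T1p and 4T1m, log2 -0.77), Aurkb (8.42 and 4.84 CPM, -0.80), Nusap1 (9.50 and 5.67 CPM, -0.74) and Ube2c (32.2 and 21.2 CPM, -0.60). Top2a stood at 33.7 and 24.9 CPM (-0.44) and Birc5 at 26.5 and 19.4 CPM (-0.46). The others were Mcm5, Mcm7, Tyms, Rrm2 and 2810417H13Rik between -0.42 and -0.62, with Stmn1 (-0.51), Tuba1b (-0.74), Tubb5 (-0.29) and Hmgb2 (-0.35). Within the shallow clusters 2 of 35 members stayed below 0, Cdc20 and Tuba1b (11% of all genes), and 4 lay above, Mki67, Mcm6, Rrm1 and Cks1b (27.4%). Within the deep clusters 4 of 21 lay below, Pcna, Tuba1b, Tubb5 and Hmgb2 (15.9%), and 3 above, Top2a, Mki67 and Mcm4 (31.4%). Mki67 was above 0 in all 3 sets of cells and Tuba1b below.

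**Figure D5:**
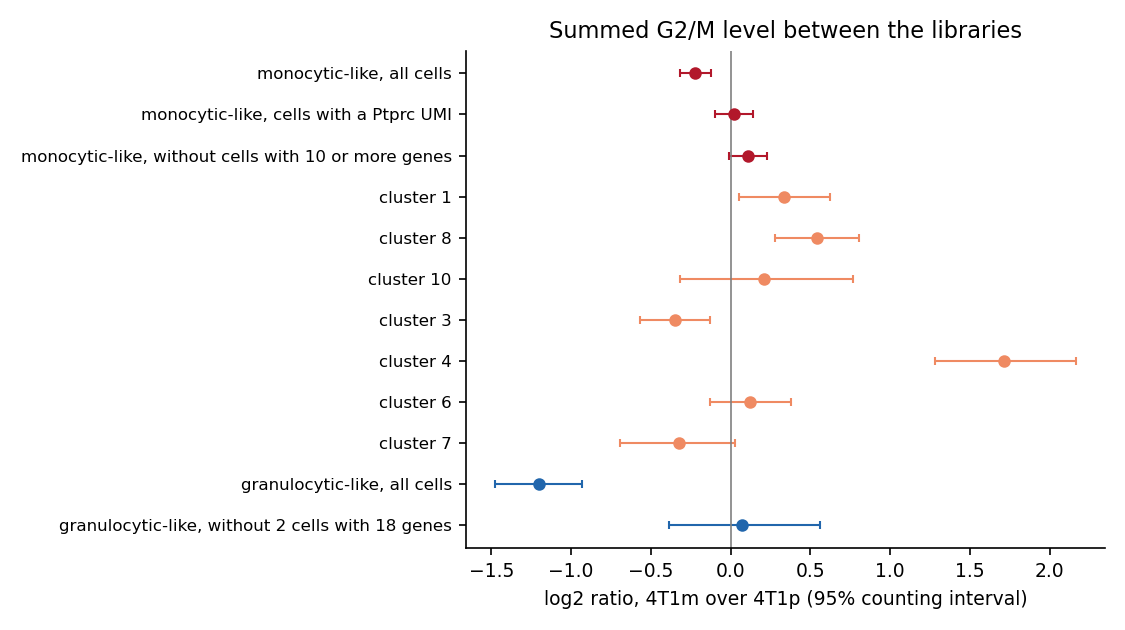
Log2 ratio of the summed G2/M genes, 4T1m over 4T1p, with its 95% counting interval, for all monocytic-like cells, for subsets of cells and for single clusters. The ratio is -0.22 in all monocytic-like cells, 0.11 without the 27 cells of 10 or more G2/M genes, -0.35 in cluster 3 and 1.71 in cluster 4.

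Single clusters moved in different directions. In cluster 3 the summed G2/M level was 1146 CPM in the library labelled 4T1p and 900.1 CPM in that labelled 4T1m (log2 -0.35, -0.57 to -0.13). In cluster 4 it was 231 and 756 CPM (1.71, 1.28 to 2.16), with 6 of 97 and 23 of 197 co-detecting cells. Without cells of 10 or more G2/M genes the ratio was -0.18 in cluster 3 (-0.44 to 0.09) and 1.00 in cluster 4 (0.55 to 1.48). Cluster 6 moved from 0.12 to 0.63 (0.27 to 1.00) in the same way. Cluster 7 went from -0.32, with an interval holding 0 (-0.69 to 0.03), to 0.55 (0.05 to 1.02). In it 7 of the 197 cells of 4T1p held 345 of their 499 G2/M UMIs. Clusters 1 and 8 stood at 0.33 and 0.54, and clusters 6 and 10, with intervals holding 0, at 0.12 and 0.21.

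In granulocytic-like cells the summed G2/M level was 220 CPM in the library labelled 4T1p and 95.4 CPM in that labelled 4T1m (log2 -1.20, -1.47 to -0.93), of which 133 of 181 and 102 of 299 UMIs came from 2 cells. Without the cell of 18 genes in each library the ratio was 0.07 (-0.39 to 0.56). Of 9 members with 50 or more UMIs, 1 was 2-fold higher in 4T1m, Mki67 (log2 1.27), against 7.15% of all genes. In 4T1p 4 were 2-fold higher, against 3.28% of all genes. These were Ube2c, with 47 and 11 UMIs in 4T1p and 4T1m and 38 of the 47 in the 1 cell of cluster 9 (log2 -4.02), Top2a (-1.15), Tuba1b (-1.70) and Tubb5 (-1.52). Without the cell of 18 genes in each library Top2a had 5 and 16 UMIs (log2 -0.28, -1.80 to 1.52), Ube2c 9 and 6 (-2.55, -4.32 to -0.89), Mki67 3 and 71 (2.60, 0.996 to 4.91), Tuba1b 55 and 76 (-1.50) and Tubb5 52 and 83 (-1.29). The interval of Top2a then held 0, and those of the other 4 genes stayed on the same side of it. For Ube2c this rests on few cells, since 5 of the 9 UMIs left in 4T1p lay in 1 cell of cluster 5. That cell had 9 G2/M genes and was marked as a doublet, and the ratio without it was not computed.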

How the data were processed

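The authors aligned reads to mm10 with Cell Ranger; what they deposited are whole-number UMI counts for each gene in each cell barcode, without further filters. Cells with 250 to 5000 genes, no more than 27000 UMIs and a mitochondrial share up to 12.5% (13 genes) were used, and 0 per-sample columns were left aside. Scrublet doublets were left out only as an alternative. SCTransform values (version 1 model, 3000 variable genes less the cycle genes, 11 principal components, resolution 0.8) of both libraries merged gave 13 Louvain clusters, which took the lineage with the higher relative marker share.

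Levels were computed from the deposited counts as CPM. Where no UMI was seen, a ratio used 3 counts as a bound. Thinning drew 1000 or 2000 UMIs per cell without replacement. Named were all members, the 5 highest and 5 lowest genes of each wider list, and the 10 highest and 10 lowest outside the lists, all with 100 or more UMIs; 2 of the genes this rule or a list would name are not reported here. The members and lists were chosen with earlier results of these data known. On counts simulated for the comparison of co-detecting with other monocytic-like cells over 7569 genes, 195 of 195 changed genes were recovered. Of 7374 unchanged genes 30 passed 2-fold, and 95.9% of true ratios lay in the interval. The simulation drew each group as a single pool without variation between cells, and its planted changes were larger than 2-fold. It therefore cannot show how the intervals behave for genes whose UMIs lie in few cells.

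Scripts ran in R 4.3.3 (Seurat 5.3.0, sctransform 0.4.2) and in Python 3.11.15 (scanpy 1.11.5, pandas 2.3.3, scipy 1.17.1, numpy 2.4.6).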

Additional observations from a re-analysis of the deposited data

Results flagged for a closer look

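Barcodes above the limits on genes or UMIs, which the comparisons leave out, were rich in cycle genes. Of 116 such barcodes 76 had 3 or more G2/M genes (65.5%, interval 56.1 to 74.1), 36 of 57 in the library labelled 4T1p and 40 of 59 in that labelled 4T1m. They held 6105 G2/M UMIs, more than the 4097 of all kept cells, and 41 of them had 10 or more G2/M genes against 29 of the kept cells. After thinning to 1000 UMIs the share was 19.0% (22 of 116) against 2.42% of kept cells (62 of 2566). Their monocytic markers summed to 17031 CPM and their granulocytic markers to 3328 CPM. Whether these barcodes are single cells was not tested. Barcodes above the mitochondrial limit had a share of 6.21% (49 of 789), close to the 6.71% of kept cells.

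The summed G2/M ratio between the libraries was flagged because clusters lay on opposite sides of 0, at 1.71 in cluster 4 and -0.35 in cluster 3 (log2 4T1m over 4T1p). With 1 library per line this difference was not tested.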

How the results depend on the processing

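Over 9 results and 72 alternatives, 49 values moved by less than their counting interval or, for a count, by less than 1.5 times. Another 19 moved by more, and 4 changed sign, each to a value whose interval held 0. The cause was not tested beyond what each setting removes. Shares are given for monocytic-like cells of 4T1p and 4T1m, then granulocytic-like cells. With 2 or more G2/M genes they were 19.3%, 22.5% and, in 4T1m, 1.76%; with 5 or more 3.57%, 5.41% and, in 4T1m, 0.196%. In the draw thinned to 1000 UMIs they were 4.96%, 4.27%, 0% and 0.107%; in that thinned to 2000 UMIs 6.05%, 4.85% and, in 4T1m, 0.158%. For the monocytic-like log2 ratio of summed G2/M and S genes, cells with a Ptprc UMI gave 0.022 and 0.00083 (both changed sign). A mitochondrial limit of 5% gave -0.50 and -0.30. Chosen after seeing the data were leaving out cluster 4 (-0.40 and -0.31) and cells with 10 or more G2/M genes (0.11, sign changed, and -0.040). So were leaving out cells with keratin or haemoglobin, and the 2 granulocytic-like cells of 18 genes (granulocytic ratios 0.074, sign changed, and -0.39). The lineage comparison without cells rich in G2/M genes was added then too. Leaving out doublets, another normalization for clustering and keeping the cycle genes in it moved none. No paired analysis was possible because each line has 1 library. Depth limits single members: Plk1 had 36 UMIs in monocytic-like and granulocytic-like cells together.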

Other observations

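Outside the lists, the genes with the highest ratio in co-detecting against other monocytic-like cells began with 4 haemoglobin genes (Hbb-bt, Hbb-bs, Hba-a1 and Hba-a2), whose UMIs lay almost wholly in 2 cells. Next were genes that no list had held, among them genes of division. Pttg1, securin, stood at 68.0 against 5.69 CPM (log2 3.58) and was found in 31.5% against 2.85% of cells. Cenpw (2.69), Hist1h1b (2.51), Incenp (2.33) and 2700094K13Rik (2.08), the last not counted here as a gene of division, were also high. At the low end stood Chil3, at 1.81 against 43.7 CPM (-4.60), Fabp4 (-4.58), Cd163 (-3.94) and Retnla (-3.49), which tissue macrophages can express, and the stromal genes Sparc (-3.81), Bgn (-4.01), Col4a2 (-4.70) and Tagln (-5.48). Rgs5 and Cxcl13 had 0 UMIs in co-detecting cells. Of these low genes each was found in 5% or fewer of the other cells.

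Lymphoid clusters had cycle genes, but too few cells to tell whether co-detection was absent at equal depth. Cenpa had a UMI in 44.4% of B cell-like and 44.4% of T cell-like cells, at 247 and 96.2 CPM against 40.1 CPM in monocytic-like cells. The 4 of 36 and 2 of 27 co-detecting cells in these clusters became 0 in all 20 draws thinned to 1000 UMIs. With so few cells the interval of a 0 reaches 9.74% and 12.8%, above the 4.91% of monocytic-like cells. In draws of 2000 UMIs the mean G2/M shares were 0.694% and 0.370%. For the S class they were 2.5% and 0.185% in draws of 1000 UMIs.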
